A study of Homo sapiens with 6 samples.

Results

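The 8 genes described here encode factors that carry translation forward or hold the poly(A) tail. Sites were taken for each gene from the table of all sites of each library if the middle of the site lay on the gene's strand within its GENCODE span in the hg19 build (GRCh37). Each site was then put into coding sequence, 3'UTR, 5'UTR, other exon or intron. This gave 2919 sites at 8 of 20163 nuclear protein-coding genes, out of 10639684 sites in the 6 libraries. The members were EEF1A1, EEF1B2, EEF1D, EEF1G, EEF2, TPT1, PABPC1 and PABPC4, and they are listed by name, with no threshold on a measured value. In PAR-CLIP, cells take up 4-thiouridine (4SU), which long-wave UV light links to proteins that touch the RNA, and a linked 4SU shows up after sequencing as a T-to-C conversion. All libraries were made from an established line of human embryonic kidney cells, HEK293, with 4SU, UV crosslinking and RNase T1, which cuts RNA after unpaired G. The 3 background libraries, G20, G35 and G45, were cut from the gel at about 20, 35 and 45 kDa after a FLAG immunoprecipitation from cells with a stable, doxycycline-inducible FLAG-GFP, a protein not known to bind RNA. Each slice is a single library, and the slices are size regions of FLAG-GFP gels, not repeats of one another. HuR, a protein that binds U-rich RNA, was immunoprecipitated from cells with a stable, doxycycline-inducible HuR and sequenced as 2 replicates. Total came from lysate that was not immunoprecipitated, as a single library, digested with proteinase K and depleted of rRNA with RiboZero. HuR and GFP libraries come from different engineered lines, so the bound protein and the line cannot be told apart.

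Translation elongation turns on a pair of GTPases. EEF1A1 brings aminoacyl-tRNA to the ribosome, and EEF1B2, EEF1D and EEF1G form the complex that recharges it with GTP. EEF2 moves the ribosome by a codon after each peptide bond, and TPT1, also called TCTP, is an abundant growth-related protein found with the elongation factor complex. PABPC1 and PABPC4 are cytoplasmic poly(A)-binding proteins, and PABPC1 is known to bind an A-rich stretch in the 5'UTR of its own mRNA. Most of these mRNAs are among the most abundant of a dividing cell, most begin with a run of pyrimidines, and several have many processed pseudogenes.

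Some sites of at most 30 bases that fall on the named sites of these genes are printed first, as examples. They were kept for their length, not their depth, and some members have none. In the order printed they held 6, 27, 3, 4, 17, 3 and 151 reads, so several are minor fragments. Names give the gene, the library the sequence was read from and its region, 5′ to 3′ on the minus strand of GRCh37. Capitals mark runs of TTTTT or GGGG and a G at the 3' end, where RNase T1 would have cut.
EEF2, G45, last exon, chr19:3976414-3976434: gtttctGGGGcccgctgcgtG
TPT1, G35, at the coding start, chr13:45915179-45915201: attatctaccgggacctcatcaG
EEF1G, G35, coding, chr11:62334907-62334924: tccgggctgtcttgggcG
PABPC4, G35, at SNORA55, chr1:40033102-40033129: tggtgctacagaatgagcagaggaaatc
TPT1, HuR replicate 2, 3'UTR with no slice site, chr13:45909303-45909329: actgtctcattttatatcTTTTTctcG
PABPC4, HuR replicate 1, 3'UTR with no slice site, chr1:40026507-40026534: tacccaagtcttacgtttcccaataaaG
EEF1A1, Total, intron, chr6:74225029-74225048: acctactaacctcaacccaG
Of the 7 sequences, 6 end in G. Over all exon sites of the 8 genes, 93.0%, 85.7% and 86.9% ended in G in the slices G20, G35 and G45, 90.0% and 92.1% in HuR replicates 1 and 2, and 95.9% in Total. The share over all mRNA exon sites was 90.3%, 80.7%, 78.3%, 88.6%, 94.9% and 96.5% in the same order.

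Reads at coding and UTR sites are given per 1000000 such reads of all nuclear protein-coding genes, called the exon level (RPM). The libraries held between 6187300 (G35) and 38644636 (G20) reads, of which 350176 (G45) to 4452120 (Total) were mRNA exon reads. Only 2.09% of G20 reads were mRNA exon reads, against 4.64 to 12.4% in the other libraries. A count of 0 allows up to 3 reads, which is 0.674 RPM in Total, 0.883 in HuR replicate 2, 3.71 in G20, 4.14 in HuR replicate 1, 7.92 in G35 and 8.57 in G45. Intervals are 95% Wilson intervals. Intervals and floors cover counting error only, since reads carried no molecular identifiers. The labels do not say whether the HuR replicates came from separate cultures, so p-values measure only the spread between these libraries. An exact two-sided permutation test of 2 HuR replicates against 3 slices cannot go below 0.2, so complete separation of the groups is reported as a count beside its share over all genes. Such tests, and edgeR's, take the spread among the 3 size regions as that of the background, although they were not independent repeats.

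The exon reads of the group were mostly EEF2. EEF2 gave 5960 of 7717 exon reads of the 8 genes in G20 (77.2%), 389 of 645 in G35 (60.3%), 474 of 718 in G45 (66.0%) and 29526 of 34481 in Total (85.6%). In HuR it gave 92 of 342 (26.9%) and 1208 of 4268 (28.3%) in replicates 1 and 2. The 8 genes together held 0.954% of mRNA exon reads in G20, 0.170% in G35, 0.205% in G45, 0.774% in Total, and 0.0472% and 0.126% in the HuR replicates. Both HuR shares lay below those of all slices and of Total.

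Per kb of exon, the exon level of EEF2 was 2334 in G20, 325 in G35, 429 in G45, 40.2 and 113 in HuR replicates 1 and 2, and 2100.0 in Total. On this scale EEF2 ranked 4 of 20163 genes in G20 and 4 in Total, 38 in G35 and 36 in G45, but 496 and 248 in the HuR replicates. EEF2 was the highest of the 8 genes in every library. Both HuR replicates lay below all slices and Total, and Total lay within the range of the slices.

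**Figure D1:**
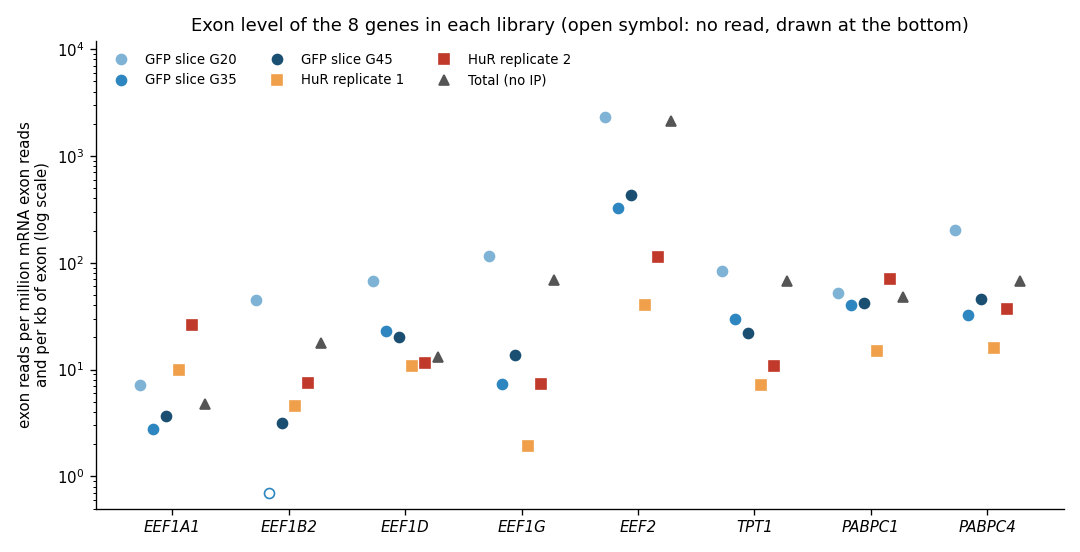
Exon level per kb of exon (y axis, log scale) of the 8 genes (x axis) in each library: circles are the single GFP slices, squares the 2 HuR replicates and triangles the Total library, with no error bars because each point is 1 library. EEF2 stands highest in every library, from 40.2 in HuR replicate 1 to 2334 in G20, and EEF1A1 is the gene whose 2 HuR replicates (9.82 and 25.9) both lie above its 3 slices.

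EEF1A1, which encodes a highly abundant protein, was the lowest of the 8 genes in G20 and Total, but not in the other libraries. Its exon level per kb was 7.22 in G20, 2.80 in G35, 3.64 in G45, 9.82 and 25.9 in the HuR replicates and 4.77 in Total. The coding sequence of EEF1A1 held 5 reads in G20, none in G35 or G45, 4 and 9 in the HuR replicates and 62 in Total. The tables hold uniquely mapping reads only, and the coding sequence of EEF1A1 is nearly never unique in the genome. Of its 1248 coding start positions with a whole 24-mer inside the coding sequence of 1 exon, 4 (0.321%) had a 24-mer that occurs once in GRCh37, with a median of 8 copies. In its 3'UTR 76.2% of positions were unique. GENCODE names 49 EEF1A1 pseudogenes, 39 of them with a read in some library, and together they held 24 reads in G20, 41 in G35, 42 in G45, 33 and 85 in the HuR replicates and 152 in Total. Levels of EEF1A1 are therefore levels of its unique stretches, most of them in the 3'UTR.

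Unique sequence differed widely among the 8 mRNAs. Every one of the 2813 start positions of EEF2 had a unique 24-mer (100%), and EEF2 has no named pseudogene. The share was 91.3% for PABPC4, which has none either, 83.0% for TPT1 (15 named pseudogenes), 73.9% for EEF1D (8), 47.3% for EEF1A1, 44.0% for PABPC1 (13), 16.1% for EEF1B2 (8) and 14.2% for EEF1G (8). Sites covered 97.8% of the EEF2 mRNA in Total and 98.1% in G20. Coverage in Total was 67.1% for PABPC4, 44.0% for PABPC1, 39.1% for EEF1D, 28.5% for TPT1, 22.5% for EEF1A1, 21.7% for EEF1G and 16.3% for EEF1B2. Per 1000 unique positions of the canonical mRNA, the level in Total was 2582 for EEF2, 630 for EEF1G, 242 for PABPC1, 110 for TPT1, 98.1 for PABPC4, 95.6 for EEF1B2, 26.4 for EEF1A1 and 22.4 for EEF1D. EEF2 was highest and EEF1G second on this scale, as they were per kb of exon in Total, where EEF1G had 68.8, PABPC4 67.3 and TPT1 66.8.

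**Figure D2:**
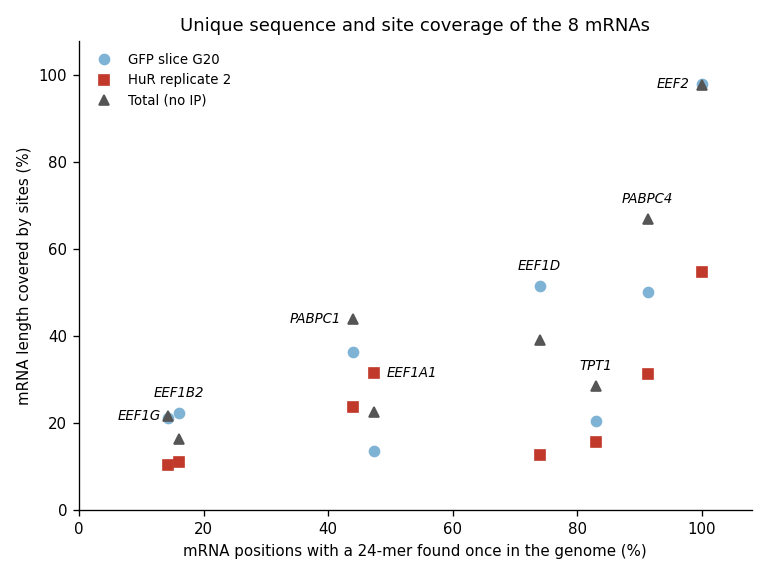
Share of the canonical mRNA's positions whose 24-mer occurs once in GRCh37 (x axis, percent) against the share of the mRNA's length covered by sites (y axis, percent) for the 8 genes in the 3 deepest libraries. EEF2 is at 100% unique and 98.1% covered in G20, EEF1G and EEF1B2 are under 17% unique and under 23% covered, and TPT1 is 83.0% unique but at most 28.5% covered in these libraries.

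Within EEF2, reads were followed along the mRNA. Merged over libraries, EEF2 exons held 16 stretches of sites, of which 14 had reads in all 3 slices and 11 in all 6 libraries. The stretch of the last exon, chr19:3976061-3976744, spans the stop codon and most of the 3'UTR. It held 17.2%, 21.1% and 23.4% of EEF2 exon reads in the slices G20, G35 and G45, 59.1% and 80.1% in HuR replicates 1 and 2, and 26.5% in Total. Both HuR replicates lay above all slices (exact permutation p = 0.2, the smallest the design allows). In Total the last exon was nearly matched by a coding stretch: the one at chr19:3982805-3983015 held 25.6% of EEF2 reads in Total (7558 reads) against 3.71% in G20, 5.14% in G35, 3.38% in G45, and 2.15% and 1.08% in HuR. Total is a single library, so its shares were not tested.

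**Figure D3:**
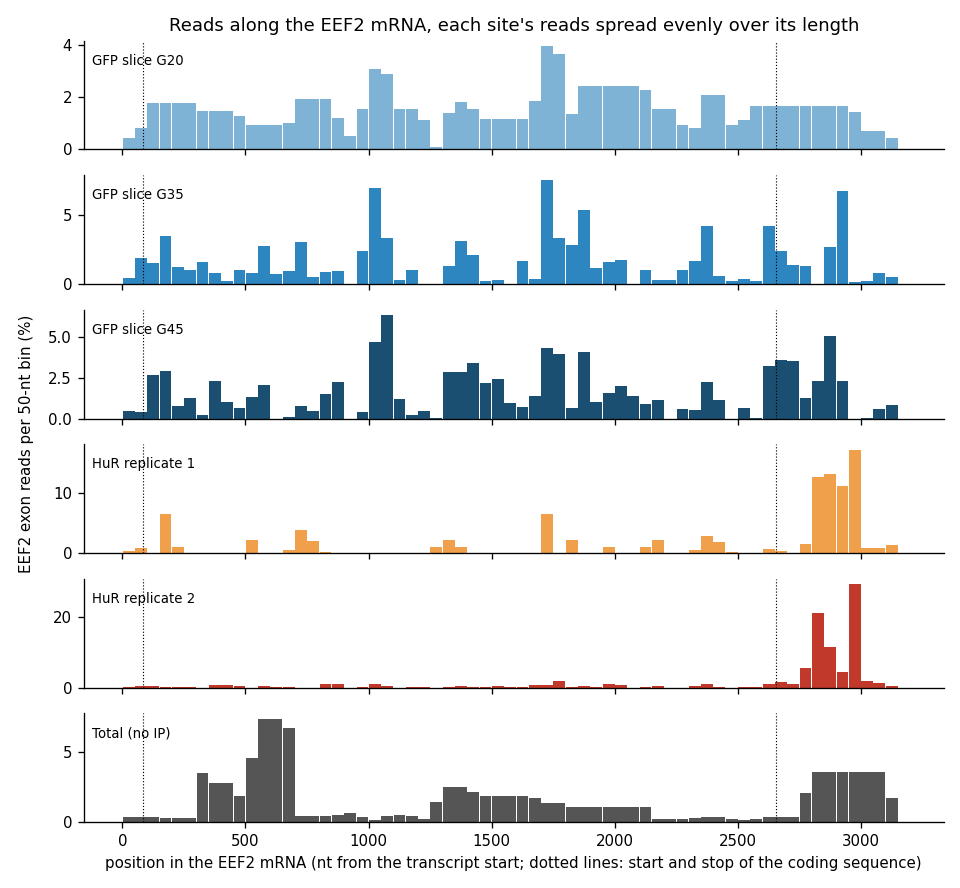
EEF2 exon reads in bins of 50 nt along the mRNA (x axis, nt from the transcript start), as a percentage of the library's EEF2 exon reads (y axis, a separate scale for each of the 6 libraries), with dotted lines at the first and last coding nucleotide (84 and 2657). Reads of the slices run along the coding sequence, both HuR replicates rise after the stop codon, and Total has its highest bins between nt 500 and 700.

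The 3'UTR share is the share of coding plus 3'UTR reads that belong to 3'UTR sites. A site counts whole by its middle, so all reads of a long site across the stop codon go to the same side. Where exons of different transcripts overlap, a position counts as coding if any transcript codes there. By this rule the EEF2 share was 17.0% in G20 (1004 of 5914 reads, interval 16.0 to 17.96%), 5.79% in G35 (22 of 380, 3.85 to 8.61%) and 21.9% in G45 (103 of 470, 18.4 to 25.9%). It was 25.3% (17.5 to 35.1%) and 40.3% (37.5 to 43.1%) in HuR replicates 1 and 2, and 1.36% in Total. The HuR replicates lay above all slices, but the interval of replicate 1 overlapped those of G20 and G45. With the canonical transcript alone, the share was 17.0%, 15.5% and 21.9% in the slices, 59.3% and 80.1% in HuR, and 26.3% in Total, because another EEF2 transcript codes past the canonical stop codon. In HuR and Total these canonical shares were close to those of the whole last-exon stretch, part of which is coding. The exact permutation p was 0.2 for EEF2. With each site counted once, or without the site with the most reads in each region, the HuR replicates of EEF2 no longer lay above all slices, while those of TPT1 and PABPC4 did.

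TPT1 had a 3'UTR share of 32.0% in G20 (80 of 250 reads), 25.5% in G35, 33.3% in G45, and of 82.8% (65.5 to 92.4%) and 85.8% (80.2 to 90.0%) in the HuR replicates, with 57.2% in Total. The slices' intervals reached 48.4% at most, so they did not overlap those of HuR. These TPT1 shares depend on the annotation, since GENCODE gives the gene 4435 nt of 3'UTR. By the authors' own site labels, its exon sites held 3, 0 and 0 3'UTR reads in the slices and 0 and 14 in HuR. The same labels called 62, 3 and 10 of its reads intergenic in the slices, and 24 and 116 in HuR. PABPC4 had 0% in G20 (0 of 153 reads, upper bound 2.45%), 3.03% in G35 and 6.52% in G45, against 50% (32.6 to 67.4%) and 64.1% (58.6 to 69.2%) in HuR and 17.9% in Total. All 3 genes with 20 or more such reads in each slice and HuR library thus had both HuR replicates above all slices. Over all 1011 genes tested the same held for 65.7%, so 3 of 3 is near what most genes did. The mean HuR share was 32.8 ± 10.6% (SD, n = 2) for EEF2, 57.04 ± 9.95% for PABPC4 and 84.3 ± 2.14% for TPT1. Of the 1011 genes, 9.79% had a lower mean HuR share than EEF2, 16.6% a lower one than PABPC4 and 33.4% a lower one than TPT1. The median gene had 90.7% and 94.1% in the HuR replicates.

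**Figure D4:**
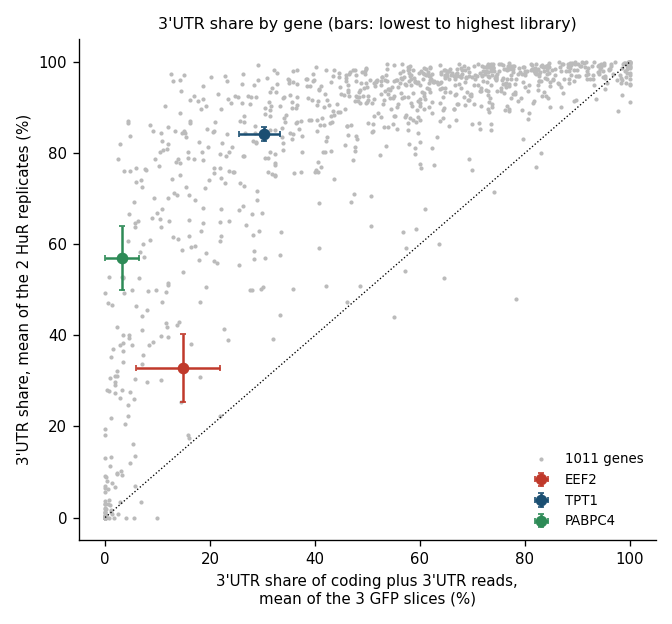
3'UTR share of coding plus 3'UTR reads by gene, as the mean of the 3 GFP slices (x axis, percent) and of the 2 HuR replicates (y axis, percent), for 1011 genes in grey and 3 of the members in colour. Bars run from the lowest to the highest library. EEF2, TPT1 and PABPC4 lie above the dotted line of equal shares, with HuR means of 32.8%, 84.3% and 57.04%.

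The other members had under 20 coding and 3'UTR reads in some library: EEF1D in HuR replicate 1, and EEF1A1, EEF1B2, EEF1G and PABPC1 in a slice. EEF1A1 was mostly 3'UTR in both groups, with 40 of 45 reads in G20, 8 of 8 in G35, 4 of 4 in G45, and 91.3% and 98.8% in HuR replicates 1 and 2. As given above, its coding sequence is nearly never unique. The EEF1A1 3'UTR site with the most reads in HuR and no slice site was chr6:74225885-74225926, with 3 and 76 reads in replicates 1 and 2 and none in Total. EEF1D and EEF1G had no 3'UTR read in HuR, where 8 and 55 reads of EEF1D and 2 and 36 reads of EEF1G were coding. EEF1B2 had 1 coding read in HuR replicate 1 and 12 in replicate 2, with no 3'UTR read. The 3'UTRs of EEF1D, EEF1G and EEF1B2 are short, at 91, 86 and 48 nt. Unique 24-mers began at 39 of 67, 5 of 86 and 12 of 25 3'UTR positions of their canonical transcripts. What this does to the counts was not tested.

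The TPT1 and PABPC4 sites in the 3'UTR printed above were chosen for overlapping no slice site. Their lack of slice reads was therefore set by the choice and is not a result. The TPT1 site, with its run of TTTTT, had 3 reads in HuR replicate 1, 17 in replicate 2, none in any slice and 4 in Total. In replicate 2 its 17 reads carried 18 conversion events. Per 1000000 exon reads, these 17 reads lie below the floors of G35 and G45 (7.92 and 8.57 RPM). They lie above that of G20 (3.71 RPM). The PABPC4 site lies in a HuR stretch at chr1:40026507-40026594 with 5 and 171 reads in the replicates, none in the slices and 3 in Total, and 169 conversion events in replicate 2. Its printed sequence ends in aataaag, which holds the letters of the usual poly(A) signal. T made up 34.4% and 34.2% of the bases of member 3'UTR sites in HuR replicates 1 and 2, against 23.9% in G20, 25.6% in G35, 24.2% in G45 and 28.2% in Total. In member coding sites T was 17.9 to 18.2% in the slices and 21.6% and 20.7% in HuR. Over member exon sites of every region T was 28.8% and 27.0% in HuR and 19.2 to 20.6% in the slices. The like values over all mRNA exon sites were 33.5% and 34.0% in HuR and 19.2 to 25.8% in the slices. The 3'UTR sites of all genes were not counted apart.

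In PABPC1 the 5'UTR held most exon reads of every slice. Of the other members with 20 or more exon reads in a library, EEF1D in G20, HuR and Total, EEF1B2 in Total and PABPC4 in G20 also had most of their exon reads there. For EEF1D this rests on other transcripts than the canonical one, whose 5'UTR held no read in G20 or HuR and 1 in Total. With the canonical transcript alone, 5'UTR reads of PABPC4 in G20 fell from 446 to 154. A site at the snoRNA SNORA55, described below and outside that transcript's exons, held 292 PABPC4 reads in G20. The PABPC1 5'UTR held 146 of 225 exon reads in G20 (64.9%, interval 58.5 to 70.8%), 60 of 82 in G35 (73.2%, 62.7 to 81.6%), 71 of 79 in G45 (89.9%, 81.3 to 94.8%), 16 of 58 in HuR replicate 1 (27.6%, 17.8 to 40.2%), 741 of 1269 in HuR replicate 2 (58.4%, 55.7 to 61.1%) and 181 of 1131 in Total (16.0%, 14.0 to 18.3%). Every slice lay above both HuR replicates and above Total, although the intervals of G20 and HuR replicate 2 overlapped. How many of all genes separate this way was not counted, so the separation cannot be called particular to PABPC1. A single stretch 18 to 86 nt from the transcript start, chr8:101734231-101734299, held 72 reads in G20, 23 in G35, 16 in G45, 3 and 598 in the HuR replicates and 14 in Total. A stretch 140 to 196 nt from the start held 5, 32 and 39 reads in the slices, 8 and 96 in HuR and 113 in Total. Another, 200 to 525 nt from the start and reaching past the start codon, held 60, 5 and 11 reads in the slices, 2 and 40 in HuR and 48 in Total, and a small one, 98 to 137 nt from the start, held 2 reads in Total only. The order of these stretches differed between G20 and the other slices. Sites holding AAAAA gave 2 of 146 5'UTR reads in G20, none in G35, G45 and HuR replicate 1, 39 of 741 in replicate 2 and 16 of 181 in Total.

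The PABPC1 3'UTR held 38 reads in HuR replicate 1 and 459 in replicate 2, against 3, 7 and 0 in the slices. Most of these lie outside the canonical transcript: with it, the 3'UTR held 2 and 51 reads in HuR, 3 in G20 and none in G35 and G45. The HuR site of PABPC1 with the highest lower replicate and no slice site, chr8:101714799-101714866, had 6 and 35 reads and lies outside the exons of the canonical transcript.

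Exon levels of 5 members could be compared, those with 20 or more exon reads in each slice and HuR library. The level of EEF1D was 409, 140 and 123 in the slices G20, G35 and G45, and 66.3 and 69.5 in HuR (67.9 ± 2.29, SD, n = 2). TPT1 had 468, 164 and 123 in the slices and 40.0 and 59.5 in HuR (49.8 ± 13.8). EEF2 had 7371, 1027 and 1354 in the slices and 127 and 356 in HuR (241 ± 162). These 3 had both HuR replicates below all slices, against 16.7% of 1208 genes. Without the site with the most reads of each member in each library, EEF1D no longer did. PABPC1 had 278, 217 and 226 in the slices and 80.1 and 374 in HuR, so the replicates fell on either side of them. PABPC4 had 741, 119 and 168 in the slices and 59.4 and 137 in HuR, which overlap. No member had both HuR replicates above all slices, against 26.6% of genes. The exact permutation p was 0.2 for EEF1D, TPT1 and EEF2, 0.4 for PABPC4 and 1 for PABPC1. EEF1A1 had too few slice reads for this count, with levels of 68.0, 26.4 and 34.3 in the slices (10 reads in G35 and 12 in G45) and 92.5 and 244 in HuR. Scaled to all reads of a library, of which few are mRNA exon reads in G20, EEF2 alone of the 5 had both HuR replicates below all slices.

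The slices and Total were compared by fold, since each is a single library. The EEF2 level was 1.11 times Total in G20 and 0.155 and 0.204 times in G35 and G45. PABPC1 stayed near Total, at 1.10, 0.852 and 0.888 times. EEF1D was 5.16, 1.77 and 1.55 times Total, and PABPC4 2.98, 0.478 and 0.678 times. Without SNORA55, described below, the PABPC4 level was 336 RPM in G20 and 227 in Total. None of the 5 members was more than 2-fold above Total in all slices (8.64% of 1169 genes were), and none more than 2-fold below it in all slices (12.7%). In HuR, EEF2 stood at 0.0191 and 0.0536 times Total and TPT1 at 0.108 and 0.161 times, and both were more than 2-fold below Total in each replicate, as were 16% of genes. None was more than 2-fold above Total in both replicates, against 9.5% of genes.

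edgeR's quasi-likelihood test across 21611 gene regions asked which regions of the members differed between HuR and the slices. Of the 22 member regions with enough reads, 5 were lower in HuR at a Benjamini-Hochberg adjusted p under 0.05 and none was higher, where 6.28% of all regions were lower and 1.17% higher. At an unadjusted p under 0.05, 10 were lower and none higher, against 17.5% and 14.4% of all regions. DESeq2 called 9 lower and none higher, against 17.2% and 6.3% of all regions. The 5 were the coding sequences of EEF2, TPT1, EEF1D and PABPC4 and the 5'UTR of TPT1. EEF2 coding reads were 4910, 358 and 367 in the slices and 68 and 718 in HuR, a log2 difference of -5.63 ± 1.34 (SE, edgeR adjusted p = 0.0425). TPT1 coding reads were 170, 38 and 28 in the slices and 5 and 28 in HuR, a log2 difference of -5.41 ± 1.04 (edgeR adjusted p = 0.0425). EEF1D coding reads differed by -4.54 ± 0.97 (edgeR adjusted p = 0.0425), PABPC4 coding reads by -3.62 ± 0.89 (0.0433) and TPT1 5'UTR reads, 128, 11 and 1 in the slices and 0 and 5 in HuR, by -7.39 ± 1.88 (0.0449). With the canonical transcript alone PABPC4 coding reads were 118, 28 and 15 in the slices and were not called (edgeR adjusted p = 0.0543). Reads at the snoRNA SNORA55, described below, are outside the coding sequence of that transcript.

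All 6 coding sequences tested had negative log2 differences, EEF1G at -4.76 and PABPC1 at -3.39 among them, and edgeR adjusted p-values of 0.0661 and 0.0808. Over all regions together 9844 of 21611 were negative. Coding regions of all genes were not counted apart, so 6 of 6 cannot be called particular to these genes. The 3'UTR of PABPC1 stood at 2.51 (edgeR adjusted p = 0.186) and that of PABPC4 at 2.54 (0.222), and introns ran from -2.20 for EEF1D to 1.33 for PABPC1. The median over the 22 member regions was -2.01 and over all regions 0.25. The scale of this test rests on the normalization. Without TMM factors, the median over all regions rose to 1.96 and that of the members to 0.37, no member region was called lower (0.227% of all regions were) and the PABPC1 3'UTR was called higher (log2 4.06, edgeR adjusted p = 0.04997), as were 7.08% of all regions. The 6 coding differences stayed negative without TMM, from -1.03 for PABPC1 to -3.21 for TPT1. Without G20 no member region was called, nor any of all 19011 regions. Without HuR replicate 2 no member region was called, and 1 of 23920 regions was lower and 114 higher. Without HuR replicate 1, 3 member regions were lower and none higher, against 1.94% and 5.2% of all regions.

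T-to-C conversions, the mark of crosslinked 4SU, were counted per 100 reads at exon sites. EEF2 had 14.6 in G20, 70.2 in G35, 44.5 in G45, 80.4 and 92.8 in HuR replicates 1 and 2, and 10.4 in Total. PABPC1 had 10.7, 43.9 and 26.6 in the slices, 93.1 and 80.0 in HuR and 17.2 in Total. PABPC4 had 10.9, 51.1 and 35.6 in the slices, 100 and 94.2 in HuR and 15.2 in Total. TPT1 had 12.7, 45.2 and 44.2 in the slices, 89.7 and 102 in HuR and 14.6 in Total. In these 4 of 5 genes both HuR replicates lay above all slices, against 60.9% of 1208 genes, so the count is near that of genes at large. EEF1D was the exception, with 107.6 in G35 and 104.7 in G45 against 87.5 and 89.0 in HuR and 13.0 in G20. A single EEF1D coding site, chr8:144671534-144671588, had 38 reads with 41 of the 57 conversion events in G35, and 20 reads with 20 of the 45 events in G45. G20 resembled Total in its low conversion rate in all 5 of these genes.

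Introns and small RNA genes took a further part of the reads. The median intron share over the 8 genes was 5.91%, 22.7% and 8.17% in the slices G20, G35 and G45, 45.7% and 41.1% in HuR replicates 1 and 2, and 13.2% in Total. Intron shares were not counted over all genes, so this difference cannot be called particular to the 8. PABPC1 had 71.9% and 60.8% intron reads in HuR against 9.47 to 47.1% in the slices. EEF1A1 introns held 62.0% or more of its reads in every library but G20 (47.7%), and its annotated span reaches well beyond the canonical transcript. EEF2 had 36.8% (60 reads) and 14.1% (206 reads) intron reads in HuR replicates 1 and 2 and at most 8.03% in the other libraries. TPT1 had at most 4.99% in any library.

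**Figure D5:**
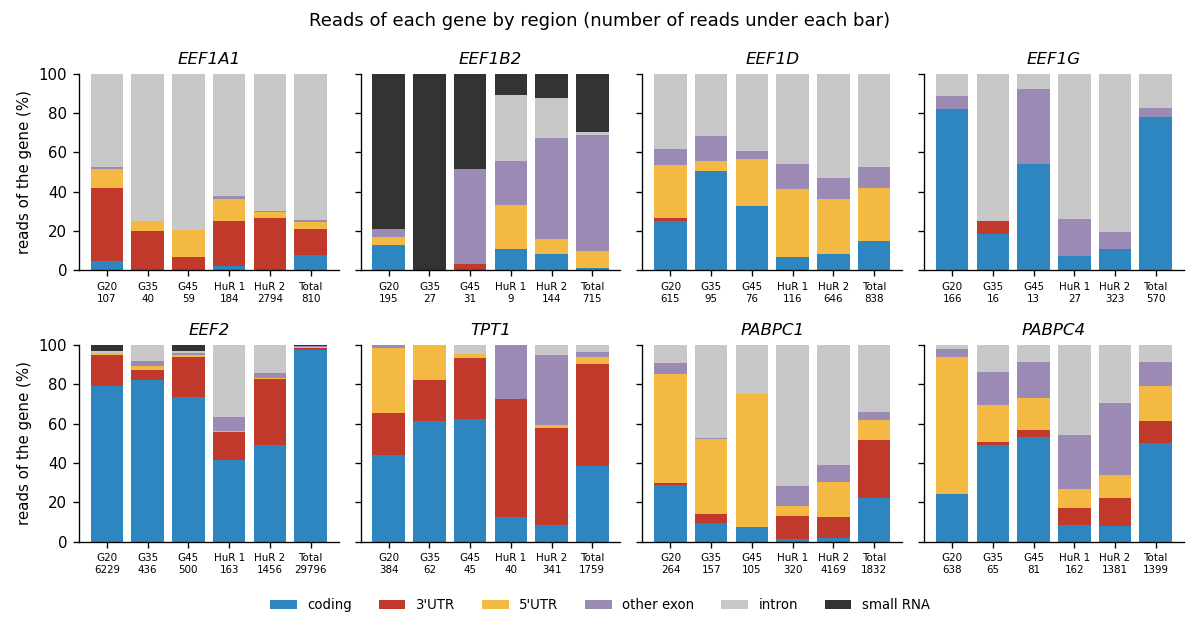
Share of each gene's reads (y axis, percent) by region in the 6 libraries (x axis, with the number of reads under each bar), 1 panel per gene; colours mark coding, 3'UTR, 5'UTR, other exon, intron and small RNA. Slices and Total of EEF2 are mostly coding, G20 and G45 of PABPC1 are mostly 5'UTR, while intron is the largest part of its G35 bar (47.1%), and the HuR bars of PABPC1 and EEF1G are over 60% intron.

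Several members host snoRNAs, small RNAs that guide modification of other RNAs, within their spans. SNORD51 in EEF1B2 held 154, 27 and 15 reads in the slices, 1 and 18 in HuR and 212 in Total, and was all that G35 held of EEF1B2. The exon level of EEF1B2 in G35 was 0 (0 of 378668 reads, which allows up to 7.92 RPM). SNORA41, also in EEF1B2, held 6, 0 and 5 reads in the slices, 0 and 1 in HuR and 288 in Total. SNORD37 in EEF2 held 207, 11 and 19 reads in the slices, none and 25 in HuR and 127 in Total, few beside the EEF2 exons. SNORA31 in TPT1 held 15, 10 and 4 reads in the slices, 0 and 6 in HuR and 24 in Total. Without it, TPT1 exon reads in the slices went from 378, 62 and 43 to 363, 52 and 39. TPT1 had only 13 and 14 3'UTR reads in G35 and G45. SNORA55 in PABPC4 held 327, 7 and 28 reads in the slices, 4 and 12 in HuR and 95 in Total, and these fall in positions that some transcript annotates as 5'UTR or coding sequence. Without SNORA55 the exon level of PABPC4 in G20 fell from 741 to 336 RPM and was 100.4, 88.5, 53.8, 134 and 227 in G35, G45, HuR replicates 1 and 2, and Total. The PABPC4 site of G35 printed above lies within SNORA55.

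Recurrence of sites between slices was counted next, for EEF2 and for the other members. Of member exon sites, 16.7% in G20, 63.6% in G35 and 52.4% in G45 overlapped a site in both other slices on the same strand, against 2.96%, 17.7% and 13.1% of all mRNA exon sites. Much of this was EEF2, with 71.4% of its sites in G20, 91.9% in G35 and 81.1% in G45, against 9.70%, 37.5% and 29.8% for the 7 other genes. G20 sites cover 98.1% of the EEF2 mRNA, so nearly any G35 or G45 site there meets a G20 site. Member exon sites held 41.5, 8.38 and 8.55 reads on average in G20, G35 and G45, against 4.28, 12.6 and 8.56 over all mRNA exon sites. Site depth and length were not matched in these percentages. The recurring sites held 98.2%, 96.9% and 94.3% of EEF2 exon reads in the slices, and 45.8%, 63.7% and 56.1% of those of the 7 other genes. Of HuR member exon reads, 216 of 342 (63.2%, 57.9 to 68.1%) and 3272 of 4268 (76.7%, 75.4 to 77.9%) lay at sites that overlap a slice site, against 69.6% and 51.0% of all HuR mRNA exon reads. By region the share was 97.2% and 95.7% for coding reads, 58.9% and 91.8% for 5'UTR reads, and 40.4% and 58.3% for 3'UTR reads. Every HuR exon site of EEF2 overlapped a slice site in both replicates, where the slices cover nearly the whole EEF2 mRNA. TPT1 was lower, at 51.7% and 37.6% of reads.

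Other genes of elongation, termination and poly(A) binding were listed for comparison. Of 43 such genes, 42 had a slice exon read and 8 had enough reads for the level. None of the 8 had both HuR replicates below or above all slices, against 16.7% and 26.6% of all genes, while 6 of 7 had a higher 3'UTR share in both HuR replicates, against 65.7%. Among 78 of their regions edgeR called 7 lower and 1 higher in HuR, against 6.28% and 1.17% of all regions, with a median log2 difference of 0.59. The 7 included the coding sequences of TUFM, the mitochondrial elongation factor Tu, and of LARP1, which binds mRNAs with pyrimidine starts. PABPN1, the nuclear poly(A)-binding protein, had the most slice reads, with levels of 728, 879 and 1145 RPM in the slices, 540 and 3643 in HuR and 142 in Total. LARP1 had 709, 127 and 286 in the slices, 319 and 494 in HuR and 647 in Total. Both of these genes overlapped between HuR and the slices.

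The pattern of the 5 well-covered members across the 6 libraries was compared with that of 1169 genes, as a description. The mean log2 level of the members, relative to the median gene of each library, was 2.25 in G20, 1.07 in G35, 0.96 in G45, 1.20 in Total, and -0.84 and -0.80 in the HuR replicates. The 5 genes most alike by Pearson's r over the 6 libraries were SRCAP (0.996), KDM5C (0.991), AKAP12 (0.986), ANKRD11 (0.985) and VIM (0.984). Within the members, TPT1 was most like EEF2 (r = 0.968), then PABPC4 (0.901), PABPC1 (0.622) and EEF1D (0.612).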

How the data were processed

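Per the labels and the methods, the authors sequenced 50-bp single reads, removed adapters, mapped them to hg19 with bowtie and ran PARalyzer, which retained reads of 1 genomic position and no more than 2 T-to-C mismatches. They deposited, for each site, whole-number counts of reads, conversion locations and conversion events, with no normalization. Tables of groups (any read) were used and those of clusters as an alternative. Removal of PCR duplicates is not given in the sources used here. A site counts whole, by its middle, in 1 region of GENCODE v44lift37, with coding before 3'UTR, 5'UTR, other exon and intron. Members and lists were chosen with earlier results of these data known. For each member up to 3 sites were named: the exon site with the most slice reads, the HuR exon site without slice overlap with the most reads in the lower replicate, and the Total site with the most reads. edgeR 4.0.16 (TMM, filterByExpr, quasi-likelihood, BH) and DESeq2 1.42.0 ran in R 4.3.3, and the rest in Python 3.11.15 with scipy 1.17.1. Tested on simulated data, edgeR recovered 168 of 200 8-fold changes, with 5 false calls among 20257 regions. The simulated spread was set below that of the data, and all slices were given equal expected shares. Only regions with 20 or more expected reads in every library were changed. These rates therefore do not carry over to the real libraries. Genes needed 20 reads in each library compared.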

Additional observations from a re-analysis of the deposited data

How the results depend on the processing

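The count of 5 member regions lower in HuR by edgeR went to 0 with library totals without TMM, 9 with DESeq2, 0 for sites with 5 or more reads, 0 without G20, 8 without G35 and 9 without G45, and ranged from 0 to 3 when either HuR replicate was left out; over all regions, too, 0 were lower without G20 and for sites with 5 or more reads; the cause was not tested, but sites with 5 or more reads and the lone slices or replicates also leave fewer reads or libraries. The count of 0 higher became 1 without TMM. The 3 genes with a higher 3'UTR share in HuR became 1 for sites with 5 or more reads and 1 for clusters, where only 1 gene had enough reads. The 3 genes with a lower exon level in HuR became 1 when scaled to all reads and ranged from 3 to 5 without a HuR replicate, and the 0 with a higher level ranged from 0 to 1. The 4 genes with more conversions in HuR became 1 for clusters and 1 for sites with 5 or more reads, where 1 and 2 genes had enough reads. The median intron share, not counted over all genes, was 31.1 percentage points higher in HuR than in the slices, 22.0 with small RNA counted as intron, 47.8 with the canonical transcript and 36.6 for sites with 5 or more reads. In the canonical setting, all of a gene's span outside the canonical exons and small RNA genes counts as intron, also past the transcript's ends. The share of HuR exon reads at slice sites, 69.9% as the mean of the replicates, was 55.0% for slice sites with 5 or more reads and 45.5% without G20. Unique positions, 68.1% at 24 bases, were 51.4% at 18 and 73.2% at 30. The other 42 of 65 alternatives left the counts within 1.5-fold and the shares within the spread, but single genes changed among them: EEF2 lost its higher 3'UTR share in HuR with each site counted once and without the top site of each region, and EEF1D lost its lower level without its top site. Leaving G20 out of the levels, 3'UTR shares and conversions, and SNORA55 and other small RNA genes out of the exons, were chosen after seeing the data and left those counts at 3, 3, 4 and 3. No paired analysis was possible because HuR is the only group with more than 1 replicate number. Depth limits EEF1A1, EEF1B2 and EEF1G in G35 and G45, each with at most 12 exon reads there.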
